A study of Mus musculus with 6 samples.

Results

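The 10 genes described here belong to the basement membrane, the thin sheet of matrix that wraps each muscle fibre, capillary and nerve branch. They encode 6 laminin chains (Lama2, Lama4, Lama5, Lamb1, Lamb2 and Lamc1), collagen IV (Col4a1 and Col4a2), nidogen (Nid1) and perlecan (Hspg2). The members were named by symbol, as the main laminin, collagen IV, nidogen and perlecan genes, and all 10 were found once among the 54393 genes of the deposited table. RNA came from the tibialis anterior, a shin muscle, of adult mice: 3 muscles labelled WT, with titles that name C57, and 3 labelled Dock3 KO. No treatment is labelled in either group, and how the Dock3 allele was made is not given in the sources used here. Nothing says that the muscles of a group came from different animals, so p-values measure the spread between these muscles, part of which may be technical.

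Laminins are heterotrimers of an α, a β and a γ chain, and they form the sheet that touches the cell surface. Collagen IV chains fold into triple helices that link into a network next to it, and nidogen and perlecan, a large proteoglycan that carries heparan sulfate, bridge both networks. In muscle the α2 chain (Lama2) binds dystroglycan and integrin α7β1 at the fibre surface, and its loss causes a congenital muscular dystrophy. The α4 and α5 chains are known from vessels and the synapse, and the β2 chain (Lamb2) is known for its enrichment at the synapse.

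None of the 10 genes passed the test between genotypes (limma adjusted p under 0.05 in 0 of 10, against 1.03% of all genes tested). At an unadjusted p under 0.05 (limma), 4 were higher in Dock3 KO, against 4.82% of all genes, and 0 were lower, against 5.7%. The collagen IV pair was 45% to 49% higher in the mean of Dock3 KO than of WT. All 3 Dock3 KO muscles lay above all 3 WT muscles, as in 7.6% of all genes tested. Perlecan was 28.5% higher with groups that just failed to overlap, and Lamb1 34.8% higher with groups that did. Lama2 was 15.7% lower in the mean, with overlapping groups. Lama4, Lama5, Lamb2, Lamc1 and Nid1 had overlapping groups, and of these Lama5 had the widest difference in means, 10.2% higher. Directions and overlaps are those of the deposited scaling. Scaling to the same library total moved the median of all genes to -0.28 on the log2 scale and all 10 members down with it. This put Lama4, Lama5, Lamb2 and Nid1 below 0. Such a scaling shifts all genes alike, so the nearly unchanged distances to that median (moves of at most 0.002) are no check on the directions.

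The genome carries Col4a1 and Col4a2 head to head on chromosome 8. Col4a1 (ENSMUSG00000031502) runs from 11198423 to 11312826 on the minus strand and Col4a2 (ENSMUSG00000031503) from 11312805 to 11449287 on the plus strand (GENCODE M21, GRCm38). Their annotated starts lie so close that the first exons share 22 bases on opposite strands. That stretch is shown because this pair had the largest differences of the 10 genes, and it is read from the RefSeq promoter table (GRCm38.p6, plus strand, the sense of Col4a2). Libraries were stranded, but whether the quantification used the strand is not given in the sources used here, so reads from those bases could be assigned to either gene. Capitals mark the 22 shared bases.
Col4a1 and Col4a2 starts, chr8:11312801-11312830: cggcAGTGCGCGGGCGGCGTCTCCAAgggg

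The bases just before the first annotated exon are shown for Hspg2 and Lamb1, which had the next largest differences, and for Nid1, whose difference was small. All 3 are on the plus strand (RefSeq, GRCm38.p6). Capitals mark GC boxes, the letters GGGCGG on either strand, which are the binding motif of the Sp1 family.
Hspg2, chr4:137468553-137468768: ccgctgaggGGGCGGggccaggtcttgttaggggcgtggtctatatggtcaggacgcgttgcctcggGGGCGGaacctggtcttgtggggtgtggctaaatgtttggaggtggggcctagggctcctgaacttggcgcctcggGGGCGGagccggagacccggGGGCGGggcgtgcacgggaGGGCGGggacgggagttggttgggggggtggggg
Lamb1, chr12:31265043-31265233: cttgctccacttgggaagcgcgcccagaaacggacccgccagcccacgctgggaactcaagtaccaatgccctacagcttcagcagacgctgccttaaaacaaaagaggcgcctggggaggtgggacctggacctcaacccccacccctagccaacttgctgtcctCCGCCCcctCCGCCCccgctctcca
Nid1, chr13:13437352-13437550: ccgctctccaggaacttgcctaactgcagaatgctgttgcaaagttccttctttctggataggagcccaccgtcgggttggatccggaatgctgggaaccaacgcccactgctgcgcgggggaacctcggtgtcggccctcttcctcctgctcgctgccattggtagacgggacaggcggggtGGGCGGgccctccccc

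The RefSeq table held windows of 300 bases, from 250 before to 50 after the start, for 8 of the members, all but Lama4 and Lamc1. A GC box stood in 7 of the 8, in all but Lamb2, against 35.7% of 32851 windows of all genes. The Hspg2 window held 5 and that of Lama5 4. The letters CCAAT, on either strand, stood in 4 of the 8 (Col4a1, Col4a2, Lamb1 and Nid1) against 37.4% of all windows, and TATAAA in 0 of the 8 against 13.6%. The Col4a1 and Col4a2 windows overlap by 78 bases, so their matches are not independent. The RefSeq start was the first base of the GENCODE gene for Col4a1, Col4a2 and Lama5 and lay inside the gene for the other 5. The distance was 34 bases for Hspg2, 59 for Lamb1, 51 for Nid1, 126 for Lamb2 and 2816 for Lama2. The Lama2 window thus lies well inside the GENCODE gene. These counts describe letters in the windows and were not set against the expression values by any test.

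The libraries differed in composition and, by estimate, in depth. The normalized counts of a library summed to between 23520223 and 33393950. Low values put the depth at approximately 23800000 and 21700000 reads in Dock3 KO replicates 1 and 2 and 28300000 to 32400000 in the other 4 libraries. The value of Dock3 was 169, 161 and 118 normalized counts in the WT libraries, against 22.4, 1.78 and 1.54 in the Dock3 KO libraries (replicates 1, 2 and 3). Of the summed normalized counts, Gm42418 and Lars2 together took 17.9% and 20.3% in Dock3 KO replicates 1 and 2 and 3.00% to 3.64% in the other 4 libraries. Both libraries that stand apart are Dock3 KO. Differences with Dock3 KO replicate 3 alone are therefore given below for Col4a1, Col4a2, Hspg2, Lamc1 and the ratios of Col4a1 to Lamc1 and Lama5 to Lama4. Muscle fibre markers were high, with Ckm, the muscle creatine kinase, between 189939 and 257236 in every library, and 0 of the 10 fibre markers passed the test described below (limma; 1 at an unadjusted p under 0.05).

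To set genes side by side, normalized counts were divided by the length of the longest coding transcript. In WT the order per kilobase was Nid1 at 678 ± 47.1, Lamb2 at 596 ± 60.9, Lamc1 at 582 ± 26.9 and Hspg2 at 513 ± 39.3 normalized counts per kilobase (mean ± SD over 3 muscles). Below these came Lama2 at 393 ± 55.3, Col4a1 at 348 ± 18.6, Col4a2 at 214 ± 7.84, Lama4 at 180 ± 28.7, Lamb1 at 170 ± 31.7 and Lama5 at 63.4 ± 6.41. The WT values separated 4 steps of abundance. Nid1, Lamb2, Lamc1 and Hspg2 overlapped each with its neighbour, as did Lama2 with Col4a1, and Col4a2, Lama4 and Lamb1 in turn, while Lama5 stood below them all. Per kilobase, Nid1 lay at the 91.9th percentile of 13410 protein-coding genes in WT and Lama5 at the 44.1st.

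**Figure D1:**
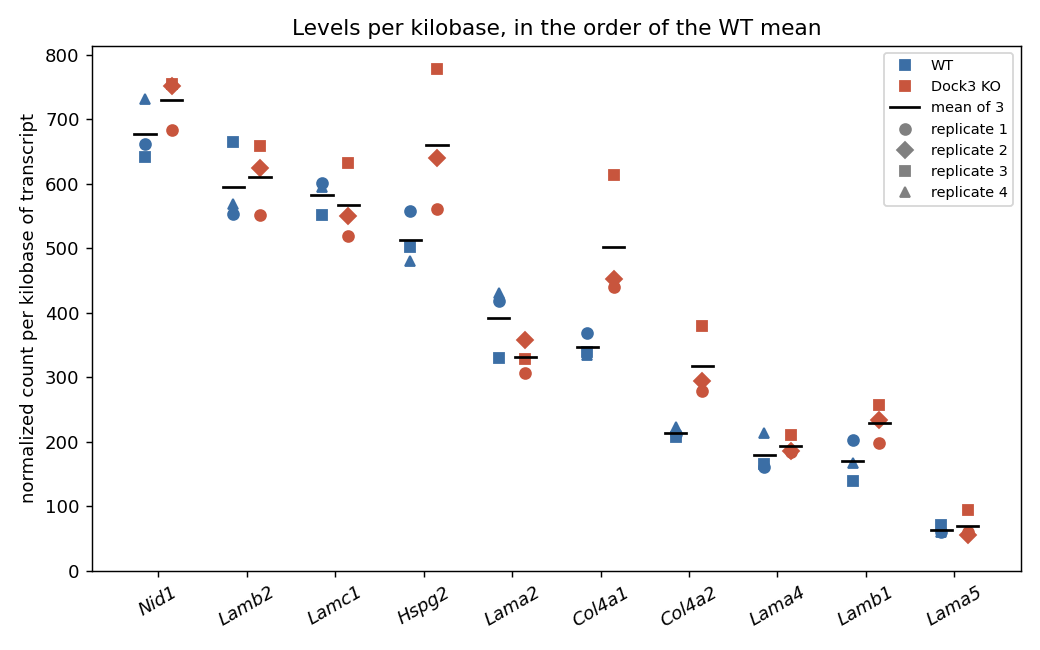
Normalized count per kilobase of transcript (y axis, from 0) of the 10 genes in the order of the WT mean, with each muscle as a point, WT in blue, Dock3 KO in red and the mean of 3 as a bar. Hspg2 and Col4a1 move up in the order in Dock3 KO, from the fourth and the sixth place to the second and the fifth, and Lama5 is the lowest in both genotypes.

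In Dock3 KO the order per kilobase was led again by Nid1, at 730 ± 39.9, followed by Hspg2 at 659 ± 110, Lamb2 at 611 ± 54.6, Lamc1 at 567 ± 58.6 and Col4a1 at 502 ± 97.3 normalized counts per kilobase (mean ± SD over 3 muscles). Col4a1, which overlapped Lama2 in WT, lay above it in Dock3 KO, where Lama2 stood at 331 ± 25.9. Col4a2, Lamb1, Lama4 and Lama5 stood at 317 ± 54.2, 229 ± 29.4, 194 ± 14.8 and 69.9 ± 21.4. These orders rest on 1 length per gene, although Lama2, Lamb1, Lamb2, Lamc1, Col4a1 and Hspg2 have more than 1 annotated coding transcript. With the median length of a gene's coding transcripts, the WT levels were 8197 for Lamb2, 1965 for Col4a1, 979 for Lamc1 and 889 for Lama2, so that Nid1 at 678 was no longer first. The order, the chain shares and the sums per kilobase below therefore hold for the longest transcripts only.

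Collagen IV was examined first, as the part of the sheet with the largest differences. Col4a1, the α1(IV) chain, had normalized counts of 2440, 2239 and 2217 in the WT muscles (replicates 1, 3 and 4, the order used throughout). The Dock3 KO muscles (replicates 1, 2 and 3) had 2913, 2989 and 4063. The Dock3 KO values were all higher than the WT values, replicate 3 by the widest margin. On the log2(normalized count + 1) scale it differed by 0.52, SE 0.149, 95% interval 0.18 to 0.85, and limma, adjusting over all 16031 genes tested, gave an adjusted p of 0.205. In bulk tissue, a difference in RNA per cell and a difference in the number of cells that make it cannot be told apart.

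Col4a2, the α2(IV) chain, had 1363, 1336 and 1434 normalized counts in the WT muscles, against 1794, 1901 and 2446 in the Dock3 KO muscles. The muscles fell in the same order within Dock3 KO as for Col4a1, and the groups did not overlap. The difference on the log2 scale was 0.56 (SE 0.143, 95% interval 0.24 to 0.88), and its limma adjusted p was 0.146, the smallest of the 10 members and rank 328 of all genes by p. With Dock3 KO replicate 3 as the only Dock3 KO library, the log2 differences of Col4a1 and Col4a2 were 0.82 and 0.83. Without that library they were 0.36 and 0.42. As deposited, the pair thus stayed higher in the 2 libraries with the large share of Gm42418 and Lars2 and was highest in Dock3 KO replicate 3. Those 2 libraries also had the largest sums of normalized counts, 33393950 and 33016889 against 23520223 to 26507063 in the others. As shares of the library sum, their Col4a1 and Col4a2 values lay close to those of WT. Scaled to the same total, the log2 differences with all muscles were 0.24 and 0.28.

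The ratio of the collagen IV chains was nearly constant. The log2 ratio of Col4a1 to Col4a2 was 0.74 ± 0.106 in WT and 0.69 ± 0.0399 in Dock3 KO (mean ± SD over 3 muscles), a difference of -0.04 with an exact two-sided permutation p = 0.6. Over the 6 muscles its SD was 0.0752, the smallest of the 45 pairs among the 10 genes. Of the 16030 other genes tested, the gene whose log2 ratio to Col4a2 had the smallest SD over the 6 muscles was Col4a1. Seen from Col4a1, Col4a2 was the second, behind Gm33378 at 0.0750, and Hspg2 was the eighth at an SD of 0.109. Such a ratio is free of the scaling of a sample, and it is a description over 6 muscles, chosen after the values were seen.

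Perlecan and nidogen, the bridging components, were compared next. Hspg2 (ENSMUSG00000028763, chromosome 4, 137468769 to 137570630, plus strand) had 7901, 7117 and 6822 normalized counts in the WT muscles, against 7956, 9072 and 11030 in the Dock3 KO muscles. The groups did not overlap, but the lowest Dock3 KO muscle lay barely above the highest WT muscle. For Hspg2 the log2 difference came to 0.35 (SE 0.147, limma adjusted p 0.437), to 0.60 with Dock3 KO replicate 3 as the only Dock3 KO library and to 0.23 without it. Nid1 (ENSMUSG00000005397, chromosome 13, 13437551 to 13512269, plus strand) had 4025, 3907 and 4452 in the WT muscles, against 4164, 4576 and 4594 in the Dock3 KO muscles. Its groups overlapped, with a log2 difference of 0.11 (95% interval -0.16 to 0.37, limma adjusted p 0.835). The log2 ratio of Hspg2 to Nid1 within a muscle was 0.82 ± 0.183 in WT and 1.06 ± 0.177 in Dock3 KO (mean ± SD over 3 muscles), and the exact two-sided permutation test of that difference gave p = 0.2. The difference was 0.24 with all muscles and 0.14 without WT replicate 4 or without Dock3 KO replicate 3.

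**Figure D2:**
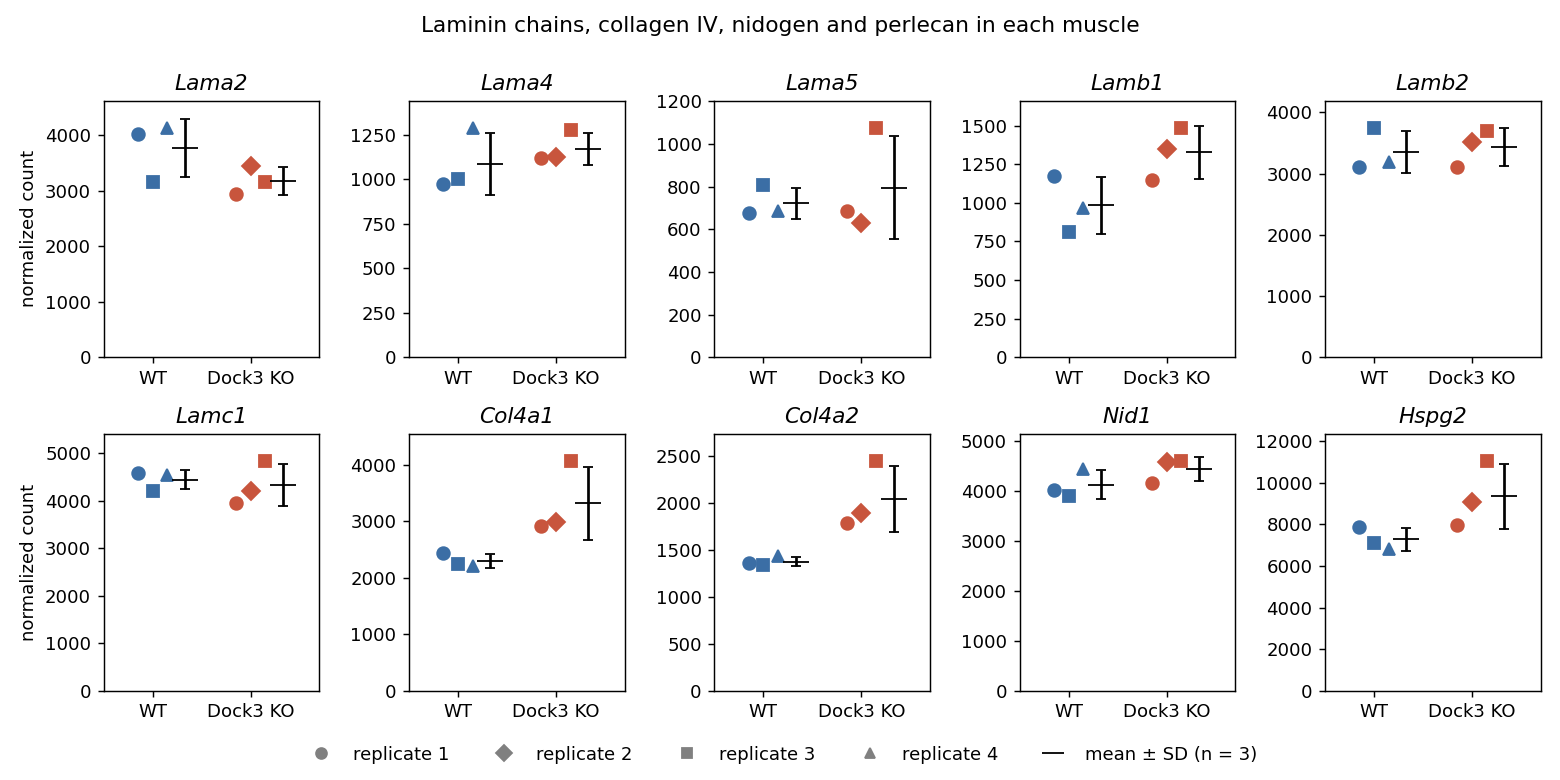
Normalized count (y axis, from 0, separate scale per gene) of the 10 genes in the 3 WT (blue) and 3 Dock3 KO muscles (red), with the shape giving the replicate number and the bar the mean ± SD. The groups separate for Col4a1, Col4a2 and, by a narrow gap, Hspg2, and Dock3 KO replicate 3 is the highest Dock3 KO muscle for all 10 genes except Lama2.

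Of the laminin α chains, Lama2 was the most abundant per kilobase. Lama2 (ENSMUSG00000019899, chromosome 10, 26980036 to 27619758, minus strand) had 4023, 3163 and 4134 normalized counts in the WT muscles, against 2946, 3441 and 3153 in the Dock3 KO muscles. WT replicate 3 was as low as the Dock3 KO muscles, so the groups overlapped. Its change on the log2 scale was estimated at -0.24 (95% interval -0.55 to 0.07) with a limma adjusted p of 0.622.

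Lama4 (ENSMUSG00000019846, chromosome 10, 38965515 to 39110188, plus strand) encodes a short α chain that lacks the N-terminal arm. It had 972, 1002 and 1287 in the WT muscles, against 1116, 1123 and 1275 in the Dock3 KO muscles, and its log2 difference of 0.12 lay within the spread (95% interval -0.21 to 0.44, limma adjusted p 0.863). Lama5 (ENSMUSG00000015647, chromosome 2, 180176373 to 180225859, minus strand), the chain of adult vessel walls and of many epithelia, had 675, 807 and 686 in the WT muscles, against 684, 629 and 1075 in the Dock3 KO muscles. Only Dock3 KO replicate 3 lay outside the WT range upward, and replicate 2 lay below it. For Lama5 the log2 difference was 0.10 with all muscles and -0.14 without Dock3 KO replicate 3 (limma adjusted p 0.923 and 0.856).

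The balance between α2 and α4 was compared within each muscle. The log2 ratio of Lama2 to Lama4 was 2.05, 1.66 and 1.68 in WT replicates 1, 3 and 4 and 1.40, 1.61 and 1.31 in Dock3 KO. All 3 Dock3 KO muscles lay below all 3 WT muscles, with a difference of -0.36 and an exact two-sided permutation p = 0.1, the smallest that 3 against 3 allow (0.3 after Benjamini-Hochberg adjustment over the 12 ratios). The gap between the highest Dock3 KO and the lowest WT muscle was narrow, and without WT replicate 1 the difference was -0.23. Of the summed α chains per kilobase, Lama1 to Lama5, Lama2 made up 60.0% ± 3.67 in WT and 54.3% ± 3.79 in Dock3 KO, and Lama4 27.5% ± 2.62 and 31.8% ± 1.40 (mean ± SD over 3 muscles). The share of Lama5 was 9.86% ± 2.04 and 11.4% ± 2.87. With Lama5 in place of Lama4, the ratio to Lama2 had overlapping groups (difference -0.34, exact permutation p = 0.4), and without Dock3 KO replicate 3 the difference was -0.10.

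Of the β chains, Lamb2 held most of the RNA. Lamb2 (ENSMUSG00000052911, chromosome 9, 108479736 to 108490530, plus strand) lies 1.25 Mb from Dock3 on the same chromosome. It had 3115, 3746 and 3198 normalized counts in the WT muscles, against 3103, 3514 and 3703 in the Dock3 KO muscles, a log2 difference of 0.04 (95% interval -0.25 to 0.33, limma adjusted p 0.960). Lamb1 (ENSMUSG00000002900, chromosome 12, 31265234 to 31329644, plus strand), the β chain of most tissues, had 1173, 808 and 969 in the WT muscles, against 1146, 1347 and 1484 in the Dock3 KO muscles. Dock3 KO replicate 1 lay just under WT replicate 1, and otherwise the Dock3 KO muscles were higher. The Lamb1 difference was 0.44 on the log2 scale (SE 0.167, limma adjusted p 0.365).

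Lamb1 made up 26.3%, 16.9% and 22.7% of the summed β chains per kilobase in WT replicates 1, 3 and 4 and 26.3%, 26.7% and 27.7% in Dock3 KO. The Dock3 KO muscles lay close together, at or above the highest WT muscle to within rounding. The log2 ratio of Lamb1 to Lamb2 differed by 0.40 with an exact two-sided permutation p = 0.2, and by 0.19 without WT replicate 3. Lamc1 (ENSMUSG00000026478, chromosome 1, 153218922 to 153332786, minus strand), the γ chain shared by most laminins, had 4580, 4204 and 4532 in the WT muscles, against 3958, 4193 and 4822 in the Dock3 KO muscles. Its groups overlapped on both sides, with a log2 difference of -0.04 (95% interval -0.32 to 0.23, limma adjusted p 0.953), and it made up 96.3% ± 0.450 of the summed γ chains per kilobase in WT and 95.7% ± 0.882 in Dock3 KO (mean ± SD over 3 muscles).

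Collagen IV and laminin RNA were also compared within each muscle. The log2 ratio of Col4a1 to Lamc1 was -0.91, -0.91 and -1.03 in WT and -0.44, -0.49 and -0.25 in Dock3 KO. Every Dock3 KO muscle lay above every WT muscle by more than the whole range of either group. The difference was 0.56, exact two-sided permutation p = 0.1 (0.3 adjusted over the 12 ratios), and it was 0.70 with Dock3 KO replicate 3 as the only Dock3 KO library and 0.48 without it. In sums per kilobase, the collagen IV chains came to between 575 and 617 normalized counts in WT and 761 to 1040 in Dock3 KO. The laminin α, β and γ sums overlapped between genotypes, at 582 to 721, 738 to 825 and 575 to 621 in WT and 564 to 649, 753 to 927 and 544 to 654 in Dock3 KO.

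**Figure D3:**
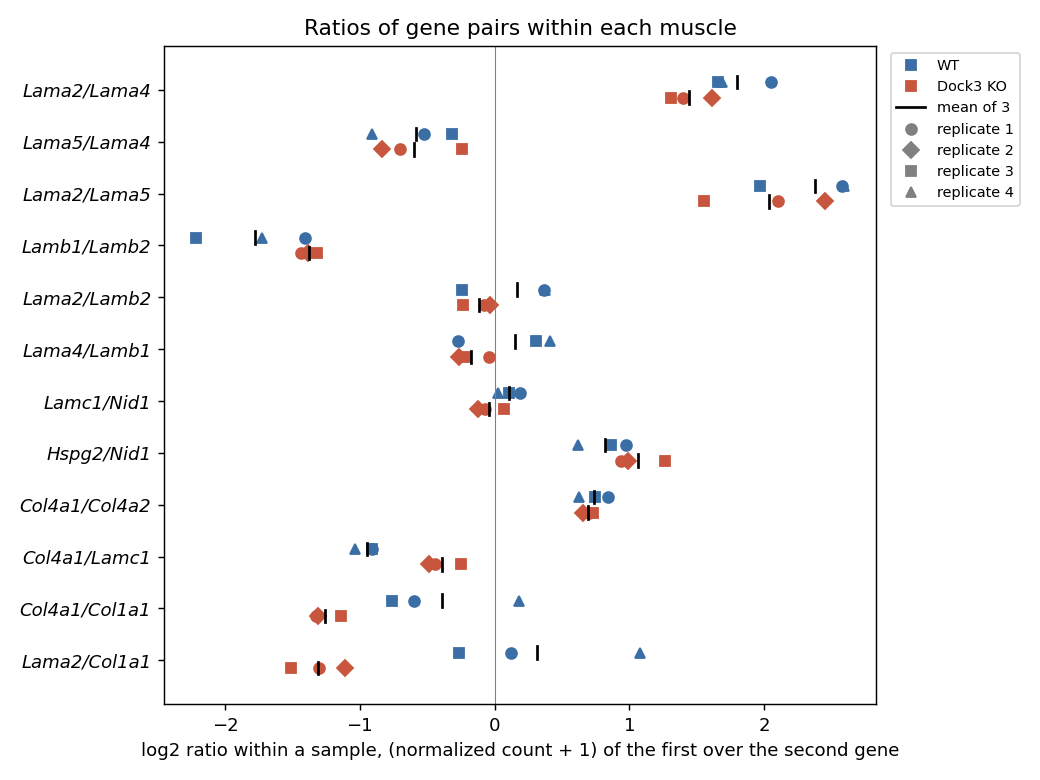
Log2 ratio of 12 gene pairs within each muscle (x axis), WT in blue above Dock3 KO in red, with the shape giving the replicate number and a bar at the mean of 3. The groups separate for Lama2/Lama4, Col4a1/Lamc1, Col4a1/Col1a1 and Lama2/Col1a1, and Col4a1/Col4a2 varies least.

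Counted together, 0 of the 10 members had a limma adjusted p under 0.05, against 1.03% of the 16031 genes tested. At an unadjusted p under 0.05, 4 were higher in Dock3 KO (Col4a1, Col4a2, Lamb1 and Hspg2), against 4.82% of all genes, and 0 were lower, against 5.7%. In 3 members (Col4a1, Col4a2 and Hspg2) the groups did not overlap with Dock3 KO higher, against 7.6% of all genes, and in 0 with Dock3 KO lower, against 8.65%. Scaled to the same library total, 0 members were higher and 1 lower at that unadjusted p (limma), with the median of all genes at -0.28. Without Dock3 KO replicate 3, the highest Dock3 KO muscle for 9 of the 10 members, 2 were higher and 0 lower, and 6 of the 10 lay above the median of all genes in place of 8. The median log2 difference of the 10 was 0.11, that of all genes -0.01. These counts rest on few genes, of which Col4a1 and Col4a2 vary together. No member overlaps a gene on its own strand with a mean above 26.8 normalized counts, and the only match of at least 95% identity outside their own loci was a stretch of 225 bases between Nid1 and Gm2399, listed at 0 in 4 of the 6 libraries.

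**Figure D4:**
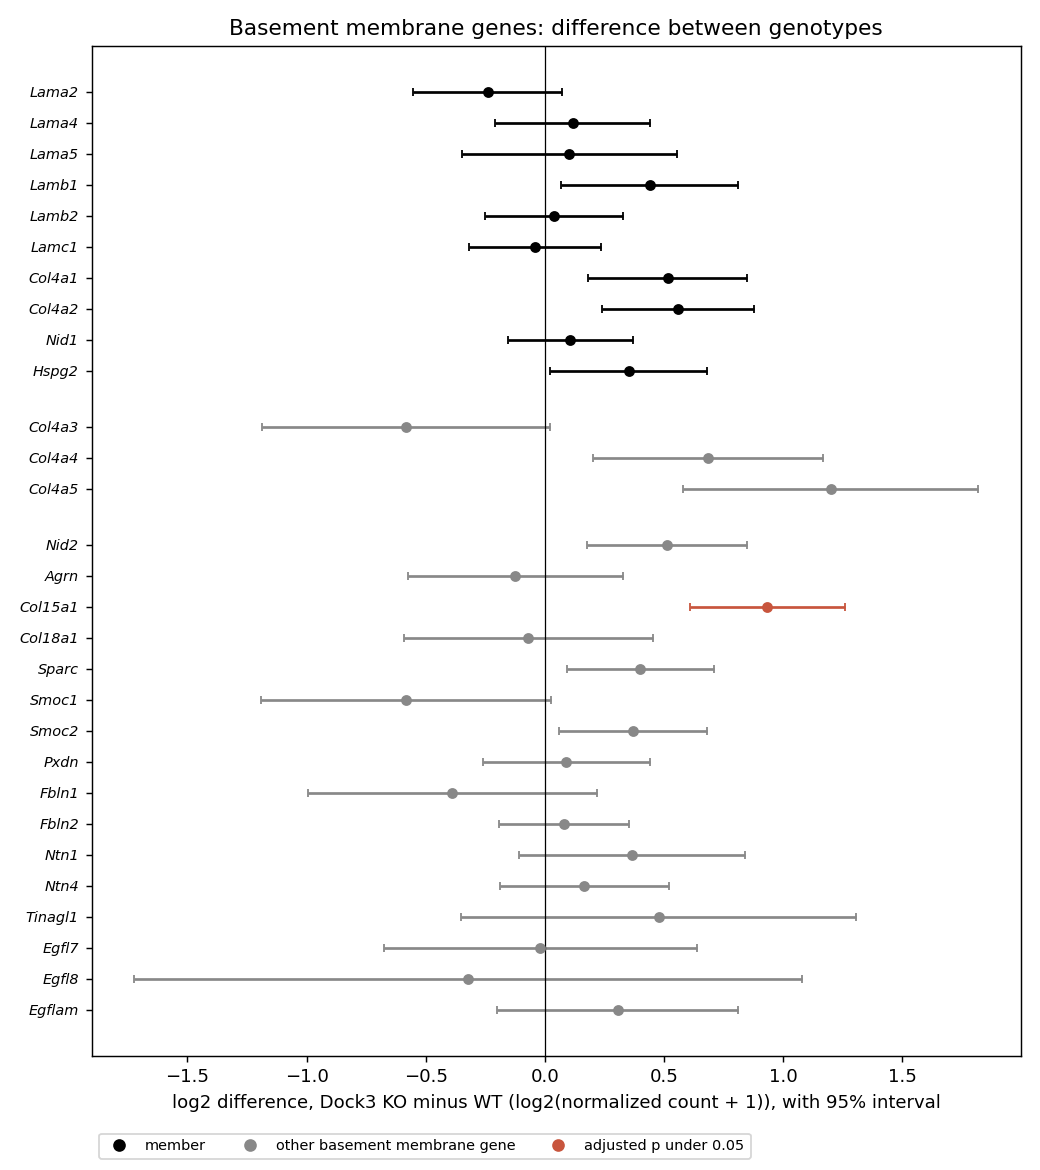
Log2 difference, Dock3 KO minus WT, with its 95% interval (x axis) for the 10 members (black), the other collagen IV chains and other basement membrane genes (grey), with red marking a limma adjusted p under 0.05. The intervals of Lamb1, Col4a1, Col4a2 and Hspg2 lie above 0 before adjustment, and among the genes plotted only Col15a1 is red.

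Of the other basement membrane components, 16 genes, 1 rose and 0 fell, against 0.443% of all genes higher and 0.586% lower at the same threshold. The gene that rose was Col15a1, a collagen that sits at the outer face of basement membranes in muscle and vessels. It had 1021, 847 and 900 normalized counts in the WT muscles, against 1644, 1591 and 2072 in the Dock3 KO muscles (log2 difference 0.93, SE 0.146, limma adjusted p 0.0134). All 3 Dock3 KO muscles were well above WT. It kept its direction in all alternatives run but not its side of the threshold. Scaled to the same library total, its log2 difference was 0.657 (limma adjusted p 0.195). Other examples are log2 Gm42418 as a covariate (limma adjusted p 0.0618), no trend in the prior variance (0.130) and leaving out Dock3 KO replicate 3 (0.0508). The median log2 difference of the 16 was 0.13. At an unadjusted p under 0.05 (limma), 4 were higher (Col15a1, Nid2, Sparc and Smoc2), against 4.82% of all genes, and 0 lower, against 5.7%. Groups did not overlap in 4 with Dock3 KO higher (7.6% of all genes) and in 1 with Dock3 KO lower (8.65%). Nid2, Sparc and Smoc2, named after their values were seen, had log2 differences of 0.51, 0.40 and 0.37 (limma adjusted p 0.213, 0.309 and 0.362).

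Among the minor chains none passed (limma adjusted p under 0.05 in 0 of 7 tested, unadjusted p under 0.05 in 3). Lama1 and Col4a6 were too low to test. The other 4 laminin chains tested had a median log2 difference of -0.06. Of the other 3 collagen IV chains the smallest p was that of Col4a5, with 44.1 ± 11.7 normalized counts in WT against 100.01 ± 2.22 in Dock3 KO (mean ± SD over 3 muscles, limma adjusted p 0.104). Col4a3 and Col4a4, which like Col4a1 and Col4a2 form a head-to-head pair, are given here after their values were seen. Col4a3 had 130, 74.5 and 130 in the WT muscles, against 69.2, 69.5 and 76.5 in the Dock3 KO muscles. Col4a4 had 156, 100.2 and 109, against 180, 202 and 198. Their log2 differences had opposite signs, -0.58 and 0.69, neither past the threshold (limma adjusted p 0.495 and 0.254).

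Receptors of laminin and collagen IV showed no call in either direction (limma adjusted p under 0.05 in 0 of 16, unadjusted p under 0.05 in 1 higher and 3 lower, median log2 difference -0.08). The smallest p was that of Itga7, the α chain of the main laminin integrin of muscle fibres, with 893 ± 111 normalized counts in WT against 1186 ± 77.1 in Dock3 KO (mean ± SD over 3 muscles, limma adjusted p 0.292). Itgb1, its β partner, named here after its values were seen, had nearly the same p in the other direction, with 5575 ± 487 against 4232 ± 503 (limma adjusted p 0.297), and the groups of neither gene overlapped. Enzymes that glycosylate dystroglycan had 0 of 16 called and 0 at an unadjusted p under 0.05 (limma), with a median of -0.11. Genes of collagen folding, modification and export had 0 of 14 called and 2 higher at an unadjusted p under 0.05 (limma), with a median of -0.02. Sec24d, a coat protein of the vesicles that leave the endoplasmic reticulum, led them with 325 ± 50.7 in WT against 493 ± 99.2 in Dock3 KO (mean ± SD over 3 muscles, limma adjusted p 0.271).

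**Figure D5:**
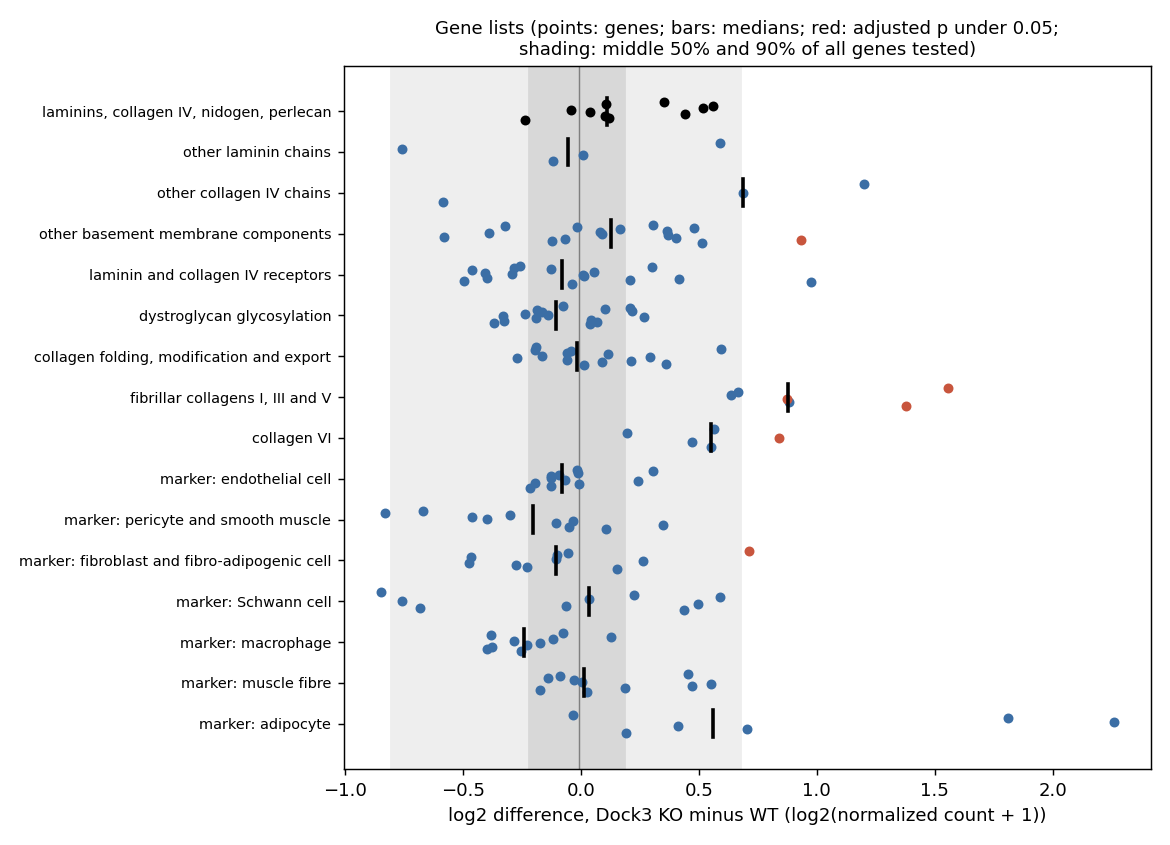
Log2 difference, Dock3 KO minus WT (x axis), of each tested gene of 16 lists, with bars at the list medians, red points for a limma adjusted p under 0.05 and shading for the middle 50% and 90% of all genes. The 10 members spread from -0.24 to 0.56, below the fibrillar collagens, which all lie above 0.6.

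The fibrillar collagens I, III and V, matrix of the space between fibres, and collagen VI are given beside the basement membrane genes. Among the 6 fibrillar genes 3 rose (Col1a1, Col3a1 and Col5a3), with log2 differences of the 6 between 0.64 and 1.56. Of the 5 collagen VI genes Col6a3 rose (limma adjusted p under 0.05 for both lists, against 0.443% of all genes higher). Whether these calls held in the alternatives was not examined. The median log2 difference of the collagen VI genes was 0.55, close to the 0.52 of Col4a1 and the 0.56 of Col4a2, and Col5a1 and Col5a2 stood at 0.64 and 0.67. Within muscles, the comparison was made against Col1a1 alone. The log2 ratio of Col4a1 to Col1a1 was -0.60, -0.76 and 0.18 in WT and -1.32, -1.31 and -1.14 in Dock3 KO, a difference of -0.86 with groups that did not overlap and an exact two-sided permutation p = 0.1. The ratio of Lama2 to Col1a1 differed by -1.62, likewise without overlap (exact permutation p = 0.1, 0.3 adjusted over the 12 ratios for both). WT replicate 4, with the least Col1a1, carried part of this, and without it the differences were -0.58 and -1.24.

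Markers of the cell types a muscle holds were measured beside collagen IV, on the same scale. Of 12 endothelial markers (of which Egfl7 is also among the other basement membrane genes) 0 passed (limma; 0 at an unadjusted p under 0.05), their median log2 difference was -0.08 and their summed normalized counts were 7634 to 10738 in WT and 7630 to 8983 in Dock3 KO. Of 10 pericyte and smooth muscle markers 0 passed (limma; 1 lower at an unadjusted p under 0.05), with a median of -0.20 and sums of 17319 to 20790 and 19226 to 21575. That median leans on WT replicate 3, where Acta2, Myh11, Tagln and Cnn1 were far higher than in any other library. Acta2 had 487, 2371 and 564 in the WT muscles, against 620, 586 and 686 in the Dock3 KO muscles. Most of the pericyte and smooth muscle sums came from Rgs5 (7516.9 to 11800 over the 6 muscles) and Abcc9 (4255.8 to 6844.8). Of 10 fibroblast markers only Fbn1 rose (limma adjusted p 0.0275), against 0.443% of all genes higher. The fibroblast median was -0.10, with sums of 61480 to 68601 in WT and 57962 to 68273 in Dock3 KO. Gsn (32582 to 39670 over the 6 muscles) and Dcn (12503 to 20834) carried most of these sums. At an unadjusted p under 0.05 (limma), 1 fibroblast marker was higher (Fbn1) and 1 lower (Pi16). Macrophage markers summed to 6610 to 7355 in WT and 5694 to 6432 in Dock3 KO and Schwann cell markers to 1698 to 2224 and 1766 to 2118, with 0 of 10 and 0 of 9 called (limma; 1 and 2 lower at an unadjusted p under 0.05) and medians of -0.24 and 0.03. Adipocyte markers summed to 1930 to 3455 in WT and 2394 to 3230 in Dock3 KO. Fabp4 alone ran from 1717.5 to 3378.6 in the WT muscles and from 2161.8 to 2632.9 in the Dock3 KO muscles. The adipocyte sums therefore say little about the other markers of that list. Of the 6 adipocyte markers 0 were called (limma) and 2 were higher at an unadjusted p under 0.05, Lep at 2.26 and Retn at 1.81 on the log2 scale. The adipocyte median was 0.56, as large as the difference of Col4a2, with 5 of 6 above 0, but Lep and Retn were low and their groups overlapped. No marker of these lists was listed at 0 in all libraries, and the part of cell composition in the collagen IV values was not tested further.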

How the data were processed

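Total RNA was depleted of ribosomal RNA and sequenced as read pairs from stranded libraries, per the labels' protocols. The authors deposited 1 table of normalized counts per gene, recorded here as a signal, and the submitters' processing notes name Trim Galore 0.4.5, Salmon 0.12.0, DESeq2 1.22.1, R 3.5.3, mm10 and GRCm38 without saying what each did. At a tolerance of 0.1, 53.3% to 67.7% of a library's low values were whole multiples of its commonest low value, so whole reads were not recovered, no count model was run and depths are estimates. All 54393 identifiers matched GENCODE M21.

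Values were taken as log2(normalized count + 1), genes with a mean of at least 10 over the 6 samples were kept, and limma 3.58.1 in R 4.3.3 compared the genotypes (lmFit, eBayes with trend, two-sided, threshold adjusted p 0.05, Benjamini-Hochberg over all genes). All 10 members passed the filter. The code was tested on simulated data. Ratios of 2 genes were tested by exact two-sided permutation over samples. Copies were searched with blastn 2.17.0 (at least 95% identity over 100 bases). Figures were drawn with matplotlib 3.10.9. Group labels came from the genotype label and replicate numbers from the titles.

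The members, gene lists and ratios were chosen with earlier results of these data known. All members are named. Of each other list, called genes are named (at most 3), or else the gene with the smallest p. Some genes that this rule names are not reported here. Tmem5 and Lepre1 of the lists matched no symbol. Replicate numbers 1 and 3 occur in both genotypes but are not labelled as shared animals. Alternatives were other pseudocounts, filters, scalings and prior variances, protein-coding genes only, a covariate, the replicate block and leaving out samples.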

Additional observations from a re-analysis of the deposited data

How the results depend on the processing

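The number of members called by limma was 0 in all 20 alternatives, with 0.114 (Col4a2, without Dock3 KO replicate 1) as the smallest member adjusted p. All genes called, 165 with all samples, came to 104 without trend in the prior variance (94 shared with the 165), 104 among protein-coding genes only (102 shared), 57 with log2 Gm42418 as a covariate (53 shared) and 56 with Dock3 KO replicate 3 alone (50 shared), and ranged from 100 (without WT replicate 4) to 159 when 1 sample was left out. Col4a1, Col4a2, Hspg2 and Lamb1 stayed higher and Lama2 lower in every alternative run.

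Scaled to the same total, 177 genes were called, 23.2% of them higher against 43% as deposited, and the median of all genes shifted to -0.28. Lama4, Lama5, Lamb2 and Nid1 then turned to -0.159, -0.172, -0.238 and -0.168. Col4a1, Col4a2, Lamb1 and Hspg2 fell in the same way, to 0.24, 0.28, 0.16 and 0.0754. Relative to the median of all genes, Lama4, Lama5, Lamb2 and Nid1 stood at 0.12, 0.11, 0.04 and 0.11 and Col4a1, Col4a2, Lamb1 and Hspg2 at 0.52, 0.56, 0.45 and 0.36, each within 0.002 of its value as deposited. With Gm42418 and Lars2 left out of the total, 31.9% of 163 were higher, the median was -0.11, Lama5 was at -6.97e-05 and Lamb2 at -0.0651. Lamb2 was at -0.0383 after quantile normalization, and Lamc1 at 0.132 with the Gm42418 covariate. With Dock3 KO replicate 3 alone, a choice added after seeing the data that assumes this muscle to vary like WT, Lamc1 was at 0.121 and the ratio of Lama5 to Lama4 at 0.337. Leaving out 1 sample gave -0.135 to 0.252 for Lama5, -0.0172 to 0.12 for Lamb2, -0.123 to 0.0197 for Lamc1, -0.189 to 0.121 for the ratio of Lama5 to Lama4 and -0.097 to 0.00856 for that of Col4a1 to Col4a2. Under the 2 scalings to a total the shift is common to all genes by construction, so the distances to the median could hardly change. The cause of the other shifts was not tested.

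With the replicate number as a block, 127 genes were called, 0 of them members, and Lamb2 was at -0.0111. Same-numbered samples had deviations correlated at 0.0649 and 0.00663, so the numbers are taken only as names. Col15a1, called with all samples, missed the threshold in 9 alternatives, all chosen for it after its values were seen. With 3 muscles a group, 1 library moves a value widely.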
